A study of Mus musculus with 6 samples.

Results

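The Gli factors are the zinc finger transcription factors at the end of the Hedgehog pathway, and a small set of proteins in the cytoplasm and the primary cilium decides how much of each reaches the nucleus and in which form. The 9 genes described here were chosen by symbol, with earlier results of these data known. They are Gli1, Gli2 and Gli3, the Gli-binding protein Sufu, the ciliary tip protein Kif7, the kinase Stk36, the ciliary receptor Gpr161, and the ubiquitin ligase adaptors Spop and Btrc. All 9 were among the 17606 genes of the table, and all 9 passed the filter on low counts that left 13888 genes to test.

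RNA was measured in keratocytes, the resident mesenchymal cells of the corneal stroma, sorted by flow cytometry from 3 control and 3 Ptch1-ablated mouse samples. The Ptch1-ablated mice were Prrx1-CreERT;Ptch1 f/f, in which tamoxifen activates a Cre recombinase knocked in at Prrx1 and removes floxed Ptch1, the Hedgehog receptor that holds the pathway off. The labels name the other group only as ctrl and do not give its genotype, and the controls were matched for age per the study. Per the labels, mice of both groups were 10 weeks old, had 3 doses of tamoxifen and a treatment time of 1 month. The age at tamoxifen given in the paper, followed by 1 month, would exceed 10 weeks, and this difference was not settled. Prrx1-CreERT also recombines in corneal endothelium and in other mesenchyme of the eye, and the gate of the sort is not given in the sources used here.

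In the resting pathway Ptch1 inhibits Smo, Sufu binds the Gli proteins, and Gli3 and in part Gli2 are phosphorylated and trimmed through Btrc into repressors. When Ptch1 is lost or bound by ligand, Smo enters the cilium, Gpr161 leaves it, and Gli2 and Gli3 reach the nucleus as activators, where full-length forms are also removed through Spop. Gli1 has no repressor form and is itself a transcriptional target of the pathway, so its mRNA is widely used as a readout of Hedgehog activity. These steps act on proteins, and the values here are levels of RNA. In bulk samples such as these, fewer cells of a type and less RNA per cell cannot be told apart.

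The libraries held between 20258439 and 24788063 expected counts, so that 3 counts, the most that a count of 0 allows, were worth between 0.121 and 0.158 normalised counts (CPM, counts scaled to a common library size). Counts of the targeted gene Ptch1 were 172, 104 and 369 in controls against 4348, 5194 and 6230 after ablation. A total over the whole gene does not resolve the deleted exons and so does not check the deletion. The keratocyte markers were strongly expressed, apart from Ptgds, which had between 0 and 39 counts. Their summed level was 49920 to 51550 CPM in controls and 27550 to 34150 CPM after ablation. By edgeR, 5 of the 6 tested had an adjusted p of at most 0.05 and were lower, against 3.8% of all genes tested.

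Of the 9 genes, 3 passed the threshold, which asked for a fold change of 2 or more and an adjusted p no higher than 0.05. These were the 3 Gli factors. Gli1 and Gli2 rose and Gli3 fell. Over all genes tested the called share was 3.36% higher and 2.13% lower, and without a fold minimum it was 4.68% higher and 3.8% lower. None of the 6 regulators passed by edgeR, DESeq2 or limma, and 1 of them, Gpr161, had an unadjusted edgeR p under 0.05. CPM did not overlap between the groups for Gli1, Gli2 and Gpr161, which were higher in every ablated library, and for Gli3, which was lower in every one. Over all genes tested 14.1% were without overlap and higher and 13.3% without overlap and lower. The adjusted p is that of the edgeR quasi-likelihood test over all 13888 genes.

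**Figure D1:**
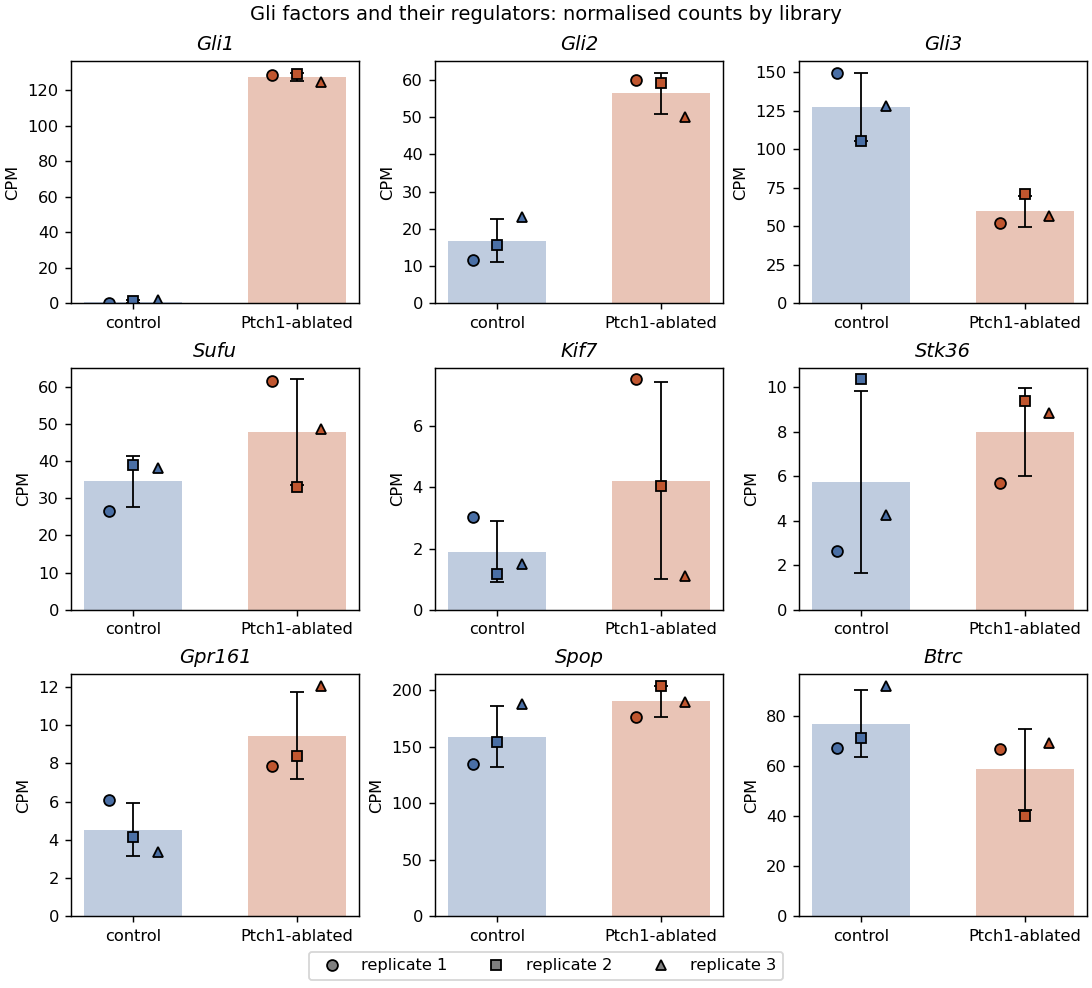
Normalised counts (CPM, linear axes that start at 0 and differ between panels) of the 9 genes in the 3 control and 3 Ptch1-ablated libraries. Symbols are libraries, bars are means and error bars are SD (n = 3); Gli1 sits near 0 in controls and between 125 and 129 CPM after ablation, while Gli3 is above 105 CPM in every control and below 71 CPM in every ablated library.

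Gli1 (Entrez 14632), the transcriptional activator, was close to the limit of detection in control keratocytes and abundant after ablation. Its expected counts were 1, 20 and 36 in the controls, in replicate order, against 3022, 3042 and 3098 after ablation. In control replicate 1 it was under the 3-count floor, whereas in the others it was above it. On the scale of normalised counts it rose from 0.891 ± 0.778 CPM to 127.6 ± 2.49 CPM (mean ± SD, n = 3 each). The log2 fold change was 7.15 ± 0.54 (SE) with an edgeR adjusted p of 5.35e-06, which placed it at rank 52 of the 13888 genes by p. The ablated libraries differed little from each other, with a coefficient of variation of 1.96%, and the controls differed widely, at 87.2%. Leaving out 1 library at a time gave log2 fold changes from 6.58, without control replicate 1, to 7.91, without control replicate 3.

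In the mouse annotation Gli1 overlaps Arhgap9, a protein-coding gene on the opposite strand, and an antisense RNA. Strandedness of the counting is not stated, so reads from the overlap cannot be told apart by strand. Arhgap9 had 244, 187 and 57 counts in controls and 179, 212 and 132 after ablation, a log2 fold change of -0.10 (edgeR adjusted p = 0.953). Its counts in the controls were thus larger than those of Gli1 in the same libraries, and its counts after ablation were far smaller.

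Gli2 (Entrez 14633), the main activator in many Hedgehog-responsive tissues, had expected counts of 254, 296 and 527 in controls and 1409, 1391 and 1242 after ablation. The lowest ablated library was above the highest control. Gli2 rose from 16.8 ± 5.80 CPM to 56.4 ± 5.55 CPM (SD, n = 3 each), which is 3.36-fold. On the log2 scale the change was 1.75 ± 0.27 (SE), and the edgeR adjusted p was 0.00132. The log2 estimate ranged from 1.54 without control replicate 1 to 2.05 without control replicate 3.

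Gli3 (Entrez 14634), the main source of Gli repressor, was the most abundant Gli transcript in controls and the only gene of the 9 that passed and was lower. Its expected counts were 3258, 1997 and 2923 in controls and 1218, 1666 and 1399 after ablation. Every ablated library was below every control, with 70.8 CPM in the highest ablated and 105 CPM in the lowest control. The mean went from 127.5 ± 22.2 CPM to 59.7 ± 9.86 CPM (SD, n = 3 each), and the change was -1.10 ± 0.19 on the log2 scale (SE; edgeR adjusted p = 0.00317). Its size was close to the 2-fold threshold. The estimate was -0.97 without control replicate 1 and -0.93 with libraries scaled by their totals only, each short of 2-fold with an adjusted p still at most 0.05.

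The promoters of Gli2 and Gli3 are shown because these genes moved in opposite directions. Promoter sequence came from RefSeq tables of assembly GRCm38.p6, which held 7 of the 9 genes, with 8 promoters. Gli1 and Btrc had no entry, so their promoters were not searched. The published Gli binding site GACCACCCA was searched on both strands, as were the looser GACCNCCCA and its core CCACCC, over the 250 bases before each annotated start. The core letters lie within the first motif and within those matches of the second that have A at the open base. Neither 9-base form was present in any of these promoters, and over 32851 mouse promoters they were in 0.225% and 0.868%. The core was in 28.1% of all promoters. It occurred 2 times before Gli2 and 1 time before Gli3, where it is in capitals (GGGTGG is the core read on the other strand).
Gli2 promoter, chr1:119053620-119053869, minus strand: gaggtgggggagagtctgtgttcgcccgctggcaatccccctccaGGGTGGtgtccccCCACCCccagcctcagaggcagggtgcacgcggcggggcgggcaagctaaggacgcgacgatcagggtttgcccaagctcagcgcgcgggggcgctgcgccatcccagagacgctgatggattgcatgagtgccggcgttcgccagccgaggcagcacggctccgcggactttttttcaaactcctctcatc
Gli3 promoter, chr13:15463473-15463722, plus strand: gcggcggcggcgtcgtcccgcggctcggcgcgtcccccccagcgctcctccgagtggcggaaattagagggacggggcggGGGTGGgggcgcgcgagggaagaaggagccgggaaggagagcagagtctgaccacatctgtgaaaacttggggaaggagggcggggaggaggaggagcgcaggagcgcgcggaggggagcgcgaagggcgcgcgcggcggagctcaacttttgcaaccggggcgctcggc
The first bases of the matches are 205 and 192 bases before the start of Gli2 and 170 bases before that of Gli3. Spop had 3 matches, the nearest 14 bases before its start, Stk36 had 1, and Sufu, Kif7 and Gpr161 had none. Both the gene that rose and the gene that fell thus held the core. A match is a description of these letters only, and binding was not measured.

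**Figure D2:**
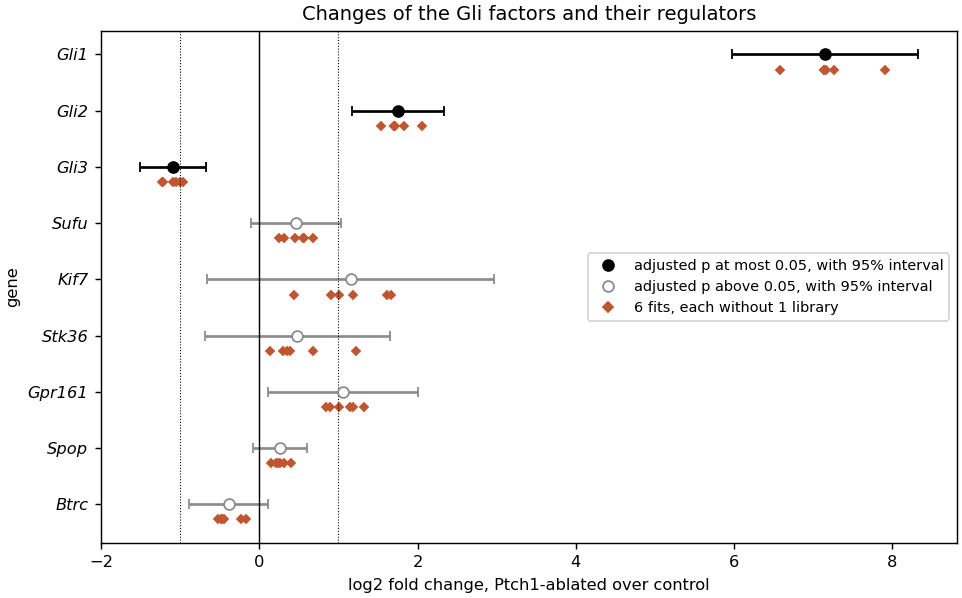
Log2 fold change of each gene, Ptch1-ablated over control (horizontal axis), with its 95% interval, and in diamonds the estimates of 6 fits that each leave out 1 library. Filled points passed at an edgeR adjusted p of 0.05, and dotted lines mark 2-fold; Gli1 is at 7.15, Gli2 at 1.75 and Gli3 at -1.10, and of the 6 regulators the interval of Gpr161 alone lies to 1 side of 0.

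The Gli transcripts were next compared per length, as TPM, a transcript abundance in which each gene's reads are divided by its effective length. The effective length implied by the counts and FPKM was 3429 bases for Gli1, 6548 for Gli2 and 7582 for Gli3 (medians over libraries), so that counts understate Gli1 relative to the others. Summed over the 3 genes, TPM was 39.9, 32.5 and 45.7 in controls and 122.4, 135.6 and 115.3 after ablation, 3.16 times higher on average.

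The composition of that sum differed between the groups. Gli1 was 0.0752%, 1.88% and 2.06% of the summed Gli TPM in controls and 70.0%, 67.8% and 69.8% after ablation. Gli3 was 91.4%, 83.5% and 82.0% in controls and 12.9%, 15.9% and 15.5% after ablation. Neither share overlapped between the groups. The shares are parts of the same sum, so a rise of Gli1 alone lowers the share of Gli3. In mean TPM, Gli1 went from 0.527 to 86.0 and Gli3 from 33.7 to 18.4. The difference of the mean shares was 67.9 percentage points for Gli1 and -70.8 for Gli3, each with an exact two-sided permutation p of 0.1, the smallest that 3 against 3 samples allow, and 0.125 after Benjamini-Hochberg adjustment over the 5 ratios and shares examined.

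Although its level rose, Gli2 took a share of TPM that overlapped between the groups. It was 8.52%, 14.6% and 15.9% in controls and 17.1%, 16.2% and 14.6% after ablation (difference 2.97 percentage points, exact permutation p = 0.3, adjusted p = 0.3). Without control replicate 1 the difference was 0.715 percentage points. Among expected counts, which are not corrected for length, the share of Gli2 did not overlap, with 7.23% to 15.1% in controls and 21.6% to 24.9% after ablation (difference 11.4 percentage points, exact permutation p = 0.1). The ratio of Gli2 to Gli3, which does not involve Gli1, was -3.42, -2.51 and -2.37 on the log2 scale in controls and 0.41, 0.03 and -0.09 after ablation. Gli3 therefore exceeded Gli2 in every control library, and the transcripts were near equal in the ablated ones (log2 difference 2.88, exact permutation p = 0.1, adjusted p = 0.125).

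**Figure D3:**
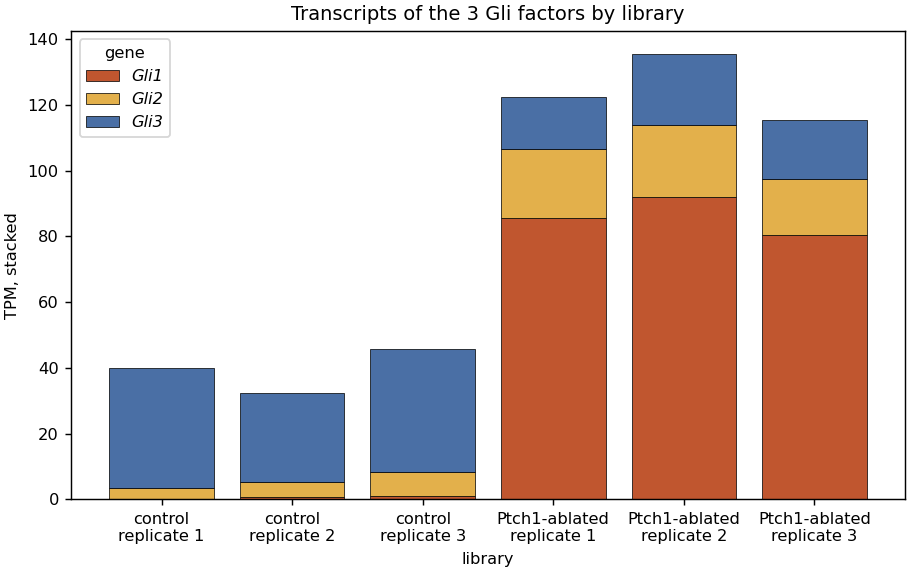
Stacked TPM (vertical axis) of Gli1, Gli2 and Gli3 in each of the 6 libraries. Control bars reach 32.5 to 45.7 TPM and are mostly Gli3, and ablated bars reach 115.3 to 135.6 TPM and are mostly Gli1.

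Sufu (Entrez 24069), which binds and restrains all 3 Gli proteins, did not pass the test. Its CPM was 26.7, 38.8 and 38.2 in controls and 61.6, 33.1 and 48.6 after ablation, with ablated replicate 2 inside the control range. The log2 fold change was 0.47 ± 0.26 (SE) with a 95% interval of -0.10 to 1.04 (edgeR adjusted p = 0.354). Set against the summed Gli TPM, Sufu was at -1.71, -0.86 and -1.33 on the log2 scale in controls and -1.90, -2.85 and -2.20 after ablation. These ratios did not overlap, with a log2 difference of -1.02 (exact permutation p = 0.1, adjusted p = 0.125). The difference was -0.31 when expected counts replaced TPM (exact permutation p = 0.6), so it depended on the correction for length. Mean TPM of Sufu itself was 16.1 in controls and 25.6 after ablation. The lower ratio thus reflects the Gli sum, which was 3.16 times higher and mostly Gli1 after ablation.

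Kif7 (Entrez 16576), a kinesin that organises the tip of the cilium and acts on Gli and Sufu there, was low and variable. Its counts were 66, 22 and 34 in controls and 177, 95 and 27 after ablation. In CPM, ablated replicate 1 was the highest of the 6 libraries and ablated replicate 3 the lowest. The log2 fold change of 1.16 ± 0.83 (SE) had a 95% interval of -0.66 to 2.97 (edgeR adjusted p = 0.495), and it was 0.43 without ablated replicate 1 and 1.67 without control replicate 1. Kif7 overlaps Ticrr on the opposite strand, which had 0 counts in each control and 11, 11 and 2 after ablation.

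Stk36 (Entrez 269209), the mouse homologue of the fly kinase Fused, was also low. Its counts were 57, 197 and 97 in controls and 134, 221 and 220 after ablation, and the control range covered all 3 ablated libraries in CPM. The log2 fold change was 0.48 ± 0.54 (SE) with an interval of -0.69 to 1.65 (edgeR adjusted p = 0.693). It was 0.13 without control replicate 1 and 1.22 without control replicate 2. For Kif7 and Stk36 the intervals include changes in either direction and increases of over 2-fold, so the data do not resolve whether they changed.

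Gpr161 (Entrez 240888), an orphan receptor of the cilium that raises cAMP and favours Gli repressor, was the regulator with the clearest separation. Its CPM was 6.06, 4.16 and 3.37 in controls and 7.89, 8.41 and 12.1 after ablation, without overlap. Of all genes tested, 14.1% were likewise higher without overlap. The mean went from 4.53 ± 1.38 to 9.46 ± 2.28 CPM (SD, n = 3 each). The log2 fold change of 1.06 ± 0.43 (SE) had an unadjusted 95% interval of 0.11 to 2.01, and the edgeR adjusted p was 0.183, above the threshold. Over the 15 alternative settings the adjusted p was between 0.11 and 0.47 and the direction stayed. Gpr161 was the only one of the 9 genes with expected counts that were not whole, such as 131.8 in control replicate 1.

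Spop (Entrez 20747), the adaptor that brings full-length Gli2 and Gli3 to a Cullin-3 ligase, was the most abundant of the 9 in every library per length. Its CPM was 134.3, 154.1 and 187.4 in controls and 176.4, 204.0 and 189.2 after ablation, and the ranges overlapped. The log2 fold change of 0.26 ± 0.16 (SE) had an interval of -0.09 to 0.61 (edgeR adjusted p = 0.405), the narrowest among the 9, and that interval holds no change of 2-fold. Btrc (Entrez 12234), the F-box protein through which phosphorylated Gli3 is partly degraded to the repressor, had 67.1, 71.0 and 92.0 CPM in controls and 66.8, 40.0 and 68.9 CPM after ablation. Its log2 fold change was -0.39 ± 0.23 (SE) with an interval of -0.89 to 0.11 (edgeR adjusted p = 0.390). Ablated replicate 2, the lowest in Btrc, moved this estimate most, to -0.17 when it was left out.

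Per length, the order of the 9 genes in controls was Spop at 111.5 TPM, Gli3 at 33.7, Btrc at 25.3, Sufu at 16.1, Gli2 at 5.14, Stk36 at 2.28, Gpr161 at 1.33, Kif7 at 1.17 and Gli1 at 0.527. Spop was above Gli3, Btrc above Sufu, and Sufu above Gli2 in all 3 control libraries, whereas Gli3 and Btrc overlapped and so did each neighbouring pair from Gli2 down. After ablation the order was Spop at 154.7 TPM, Gli1 at 86.0, Sufu at 25.6, Btrc at 22.1, Gli2 at 19.9, Gli3 at 18.4, Stk36 at 3.70, Gpr161 at 3.31 and Kif7 at 2.61. Gli1 moved from the last place to the second, clear of its neighbours. Sufu, Btrc, Gli2 and Gli3 formed a run in which each overlapped the next, and Gli3 was above Stk36 in all 3 ablated libraries.

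Of the other genes through which Gli factors work, 6 lists with 80 symbols were examined, of which 73 genes could be tested. By edgeR, 6 of the 73 passed at an adjusted p of 0.05 and were higher, and none passed and was lower. The shares over all genes tested were 4.68% higher and 3.8% lower. At an unadjusted p under 0.05 there were 9 higher and 2 lower, against 10.8% higher and 9.72% lower over all genes tested. DESeq2 and limma (on log2 of TPM plus 1) each gave 7 higher and 0 lower at an adjusted p of 0.05. Over all genes DESeq2 gave 6.9% higher and 5.61% lower, and limma 8.5% and 3.18%. Most of those that passed by edgeR, 4 of the 6, were in the list of upstream and Gli-responsive genes. The median log2 fold change over all 13888 genes was 0.0046.

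None of 17 genes of the kinases that act on Gli proteins, regulatory subunits of protein kinase A included, passed the test in either direction (median log2 fold change 0.14). At an unadjusted edgeR p under 0.05, 2 were higher and 1 lower. DESeq2 called 1, Dyrk2, and limma called 1, Csnk1a1, both higher and named after their values were seen. The most abundant per length in controls, Prkar1a, one of those regulatory subunits, had 256.6 ± 21.0 TPM in controls and 329.4 ± 21.1 TPM after ablation (SD, n = 3 each) and a log2 fold change of 0.15 (edgeR adjusted p = 0.581). None of the 14 nuclear cofactors passed by edgeR, DESeq2 or limma (median 0.08), and 1 was higher at an unadjusted edgeR p under 0.05. Smarcb1, a chromatin remodelling subunit that binds Gli1, was the most abundant at 187.6 TPM in controls (log2 fold change -0.22, edgeR adjusted p = 0.461).

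Of the 15 genes of ubiquitin ligation and turnover tested, 1 passed (median 0.17). Kctd11, a Cullin-3 adaptor known as a Hedgehog antagonist, had 45.2, 40.6 and 30.6 CPM in controls and 60.4, 69.8 and 63.9 CPM after ablation, which is 0.74 ± 0.20 on the log2 scale (SE; edgeR adjusted p = 0.0431). The adjusted p was above 0.05 in 7 of 15 alternatives and reached 0.128. Skp1, which links F-box proteins such as Btrc to their ligase, was the most abundant of the list at 326.2 TPM in controls, with a log2 fold change of 0.06 (edgeR adjusted p = 0.904).

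Of the 19 genes of ciliary transport tested, 1 passed (median 0.10). Evc2, which with its partner Evc passes the signal from Smo to Sufu and Gli at the base of the cilium, had 24.7, 36.1 and 34.7 CPM in controls and 62.7, 98.7 and 65.3 CPM after ablation. It rose by 1.25 ± 0.24 on the log2 scale (SE; edgeR adjusted p = 0.00586), and it passed in all 15 alternatives. Fkbp8, the most abundant of the list, had 135.3 TPM in controls and a log2 fold change of -0.17 (edgeR adjusted p = 0.662). Of the 8 Gli-related zinc finger genes, only Glis2 and Glis3 were expressed enough to be tested and neither passed, also at an unadjusted p. Glis2 had 41.0 ± 2.08 TPM in controls and 59.8 ± 13.1 TPM after ablation (log2 fold change 0.34, edgeR adjusted p = 0.354).

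In the list of upstream and Gli-responsive genes 4 of 6 passed by edgeR and were higher (median 0.94), against 4.68% of all genes tested. Hhip, a ligand-binding antagonist and target of the pathway, had 12, 25 and 31 counts in controls and 23979, 26893 and 26452 after ablation, a rise of 9.97 ± 0.27 on the log2 scale (SE; edgeR adjusted p = 2e-09). Like Gli1 it was near the floor in controls. Transcripts assigned to Ptch1 rose by 4.47 ± 0.35 on that scale (edgeR adjusted p = 6.83e-06). The co-receptors Boc and Cdon, which present ligand to Ptch1, rose by 0.87 ± 0.15 (edgeR adjusted p = 0.00252) and 1.01 ± 0.21 (edgeR adjusted p = 0.0092). Cdon had an adjusted p of 0.0527 without control replicate 2. Boc was the most abundant of the list in controls at 60.1 TPM. Smo, the transducer, did not pass, with a log2 fold change of 0.18 and an interval of -0.36 to 0.71 (edgeR adjusted p = 0.764). Gas1, the third co-receptor, had lower CPM in every ablated library, as had 13.3% of all genes tested. It also did not pass (log2 fold change -0.63, edgeR adjusted p = 0.227).

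**Figure D4:**
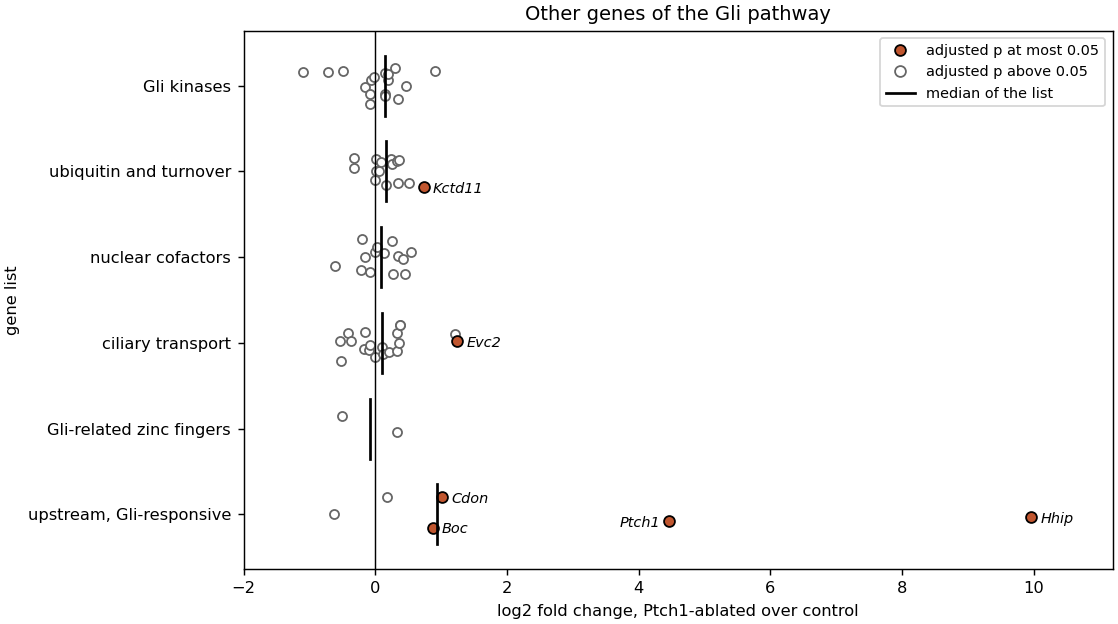
Log2 fold change, Ptch1-ablated over control (horizontal axis), of the 73 tested genes of 6 lists (rows, with vertical offsets only to separate points). Filled points passed at an edgeR adjusted p of 0.05, and bars are list medians; 4 of the 6 filled points are in the upstream and Gli-responsive list, and Evc2 and Kctd11 stand alone in theirs.

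Summed levels of several marker lists of other cells, though not of all, differed between the groups. The counts of passing genes below use an edgeR adjusted p of at most 0.05. Of all genes tested, 4.68% passed that and were higher, and 3.8% passed and were lower. The summed level of the mural cell list (pericytes and smooth muscle) was 920.7 to 1118 CPM in controls and 1398 to 1449 CPM after ablation, and 3 of its 5 genes passed and were higher. That list holds Acta2, which the paper used as a fibroblast marker in keratocytes. Which cells carried these transcripts was not tested. The Schwann cell list went from between 53.2 and 77.6 CPM to between 104.2 and 116.6 CPM, with 1 of 4 passing, and the cycling cell list from between 2.23 and 4.13 CPM to between 9.25 and 24.8 CPM, also with 1 of 4 passing. The corneal epithelium list was between 39.6 and 68.6 CPM in controls and between 2.25 and 9.03 CPM after ablation, with 3 of 6 lower and 1 higher. That of corneal endothelium, which the Cre line also reaches, was 413.4 to 510.4 CPM in controls and 323.3 to 366.5 CPM after ablation, with 1 of 3 lower.

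The vascular endothelium list was 557.2 to 751.7 CPM in controls and 584.1 to 641.9 CPM after ablation, with 2 of 4 higher. The leukocyte list was 880.1 to 935.8 and 788.8 to 1024 CPM, with 1 of 5 higher, and the melanocyte list was 3.74 to 5.99 and 4.42 to 6.13 CPM, with none of its 2 tested genes passing. No marker of any list was at or under 3 counts in all 6 libraries. Gli2 rose and Gli3 fell alongside these shifts and the lower keratocyte markers, and the part of the shifts in the Gli changes was not tested.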

How the data were processed

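RNA of sorted corneal keratocytes was measured in 3 control and 3 Ptch1-ablated samples, grouped by sample title. Per the study's methods these are biological replicates. Per the labels, an Illumina TruSeq kit was used, whereas the methods describe ribosomal RNA depletion and a BGISEQ platform. The authors aligned reads with Bowtie2 (2.2.5) and quantified genes with RSEM (1.2.12), and the submitters' processing notes name build mm9. The authors deposited expected counts per gene without normalization, of which 18.6% were not whole numbers because RSEM divides reads that match several genes. They also deposited TPM and FPKM values scaled by effective length and library. Averages per group in the same table were not used.

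Expected counts were rounded, genes were kept by filterByExpr, and groups were compared in edgeR (4.0.16, R 4.3.3) with TMM scaling and the quasi-likelihood test, two-sided with Benjamini-Hochberg adjustment over all 13888 genes. CPM are counts scaled to a common TMM-adjusted library total. SE and 95% intervals come from the quasi-likelihood fit and are not adjusted for multiple testing. Shares and ratios of TPM were compared by exact permutation of 3 against 3 samples. Floors of 3 counts cover counting error only. DESeq2 (1.42.0) and limma (3.58.1, on log2 of TPM plus 1 or 0.1) were alternatives. The fits were also run on counts simulated from the means and spread estimated in these data, which checks the code and not the calls made here. Positions are given for promoter sequences only, from GRCm38.p6, which is not the build of the counts, and gene overlaps came from a reference annotation.

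The 9 genes and all gene lists were chosen with earlier results of these data known. Named were the 9 genes, the list genes that passed the test, every upstream or Gli-responsive gene (1 further gene first listed there is not reported here, nor counted in the list), the most abundant gene of each list, and for each Gli factor the 3 genes most like it in pattern.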

Additional observations from a re-analysis of the deposited data

How the results depend on the processing

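All 9 genes kept their direction and their side of an adjusted p of 0.05 in each of 15 alternatives. Gli1 ranged from 5.88 (limma on log2(TPM + 1)) to 7.91 and Gli2 from 1.54 to 2.05 in log2 fold change. Gli3 ranged from -1.23 to -0.83 with an adjusted p of at most 0.0428, and it was short of 2-fold in 4 alternatives (library totals only, without control replicate 1, and limma with either pseudocount), which left 2 of the 9 called in place of 3.

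Of all genes, 763 were called, 611 to 756 with 1 library left out, 961 by DESeq2, 522 with the adjusted p held to 0.01, and 1178 with no fold minimum. The split was 467 higher and 296 lower, against 633 and 234 with library totals only and 768 and 283 or 692 and 251 with limma at pseudocounts of 1 and 0.1. These moved the median log2 fold change of all genes to 0.173, 0.192 and 0.221. None of these settings applies the TMM factors, which were 0.922 to 0.97 in controls and 1.039 to 1.085 after ablation. Why the factors differed between the groups was not tested. Same-numbered samples did not deviate together (correlations of -0.0461, -0.0489 and 0.0388), and with a replicate block 663 genes and 3 of the 9 were called.

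With expected counts in place of TPM, which leaves length uncorrected, the difference was 51.8 percentage points in the Gli1 share, 11.4 in the Gli2 share, which then did not overlap between groups, and -63.2 in the Gli3 share, and -0.31 in the log2 ratio of Sufu to summed Gli. Leaving out 1 library moved the log2 fold change of Skp1 between -0.094 and 0.16 (below 0 without control replicate 3 or ablated replicate 1), and that of Fkbp8 was 0.0063 in both limma fits. At 1 to 36 control counts, the spread of Gli1 in controls limits its fold change.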

Other observations

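Among the 11054 genes averaging 100 counts or more, those most like each Gli factor in log2 CPM over the 6 libraries were Jun, Cpne5 and Stat2 for Gli1 (Pearson r of 0.9996, 0.9995 and 0.9988), Igfbp3, Ecscr and Actn4 for Gli2 (0.9971, 0.997 and 0.9963), and Cdc23, Slc39a4 and Ccpg1 for Gli3 (0.9932, 0.9917 and 0.9913). A small constant was added to CPM before the log, which narrows the spread at low levels such as those of Gli1 in controls. The 6 libraries fall into 2 groups, and any gene with a steady difference between them has a high r. An r above 0.95 was found for 326 genes with Gli1, 235 with Gli2 and 108 with Gli3.

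The effective length of Kif7, as implied by its counts and FPKM, varied between 2982 and 4250 bases over the 6 libraries, and that of Gli3 between 6954 and 8043 bases. For Sufu, Spop and Btrc the range was at most 0.8% of the median.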
